A study of Mus musculus with 9 samples.

Results

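The baseline translatome of PV INs in hippocampal CA3/CA2 was described from the 5 samples labelled shNT, of 9 samples in the series. These 5 samples were taken by their label alone, and no level was compared with the shRNA samples. Each sample came from PV-Cre; Rpl22HA/HA mice, in which Cre recombinase made from the parvalbumin locus leads to an HA epitope on the ribosomal protein Rpl22. Mice were injected in the DG at 2 months of age with a lentivirus carrying a non-target shRNA (shNT) and GFP, and CA3/CA2 was dissected 2 weeks later. Tissue of 6 mice (3 male and 3 female by the study's account) was pooled for a sample, and ribosomes with their RNA were pulled down through the HA tag. All 5 samples therefore carry the same transgenes, surgery and virus, and none is from an untouched animal. The values are ribosome-associated RNA plus RNA of other cells carried along in the pulldown. No library of whole CA3/CA2 tissue was used here, so levels within the pulldown were measured and enrichment over tissue was not.

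PV INs are inhibitory neurons that release GABA onto the cell bodies and axon initial segments of principal cells, with fast and precisely timed output. Their narrow action potentials and high firing rates depend on potassium channels of the Kv3 type, and they are named for the calcium buffer parvalbumin. In hippocampus the class holds basket and axo-axonic cells as well as dendrite-targeting bistratified cells, some of which also make somatostatin and neuropeptide Y.

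Between 19680352 and 34578837 reads were counted on genes per sample (median 28461309), and protein-coding genes held 97.7 to 99.4% of them. Levels below are given as CPM (counts per 1000000 gene counts) or, wherever genes are compared with each other, as TPM. TPM divides a gene's count by the summed length of its annotated exons and rescales each sample to 1000000. Values are the mean ± SD over the 5 samples unless the samples are given, and samples are listed from replicate 1 to replicate 5. Replicates are separate pools of mice by the study's account, and replicates 1 to 3 bear names that begin with YTa31, replicates 4 and 5 names that begin with YTa32.

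Some libraries stood apart. Xist, the noncoding RNA of the inactive X chromosome, was at 0.019 TPM in replicate 1, where Y-linked Ddx3y was at 55.8 TPM. Replicate 5 was the reverse, with Ddx3y at 0.0664 TPM and Xist at 6.21 TPM. Only replicates 2, 3 and 4 had at least 1 TPM of both, so replicates 1 and 5 went against the account of mixed pools. Replicate 2 had 18.6% of its uniquely aligned reads outside exons, against 9.76 to 11.3% in the others, and 13474 CPM of the nuclear RNA Malat1. Over replicates 2, 3 and 4 alone, 5 of the 274 named genes moved more than 1.5-fold from their 5-sample mean (Actn2, Actn4, Mprip and Ppp1r9a among them). Without replicate 1 it was 10 genes, with Ppp1r9a at 0.375 times its mean, and without replicate 2 it was 6, with Malat1 at 0.423 times. Leaving out replicate 3, 4 or 5 moved 0 genes that far.

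The markers of PV INs were all present, and Pvalb led them. Pvalb (chr15:78021544-78036830 in mm9, minus strand), the gene of parvalbumin, was at 2014, 3160, 2076, 2788 and 3246 TPM. That put it at rank 27 among protein-coding genes. Gad1 (chr2:70391129-70440071, plus strand), the main enzyme of GABA synthesis, was at 1207, 670, 1340, 1241 and 1085 TPM, lowest in replicate 2. Kcnc1 (chr7:53651867-53693745), a Kv3 channel, was at 289 ± 47.7 TPM, and Slc32a1 (chr2:158436494-158441484), which loads GABA into vesicles, was at 261 ± 52.7 TPM. Exons of other genes overlap 24.8% of the Slc32a1 exons, and the counting did not use strand, so its level is uncertain. Syt2 (chr1:136605877-136649726), the calcium sensor of fast release, was at 147 ± 41.1 TPM, and Lhx6 (chr2:35937470-35960928), a transcription factor of interneurons from the medial ganglionic eminence, was at 138 ± 32.3 TPM. Like Gad1, Kcnc1 (211 TPM), Slc32a1 (175 TPM), Syt2 (94.6 TPM) and Lhx6 (98.6 TPM) were lowest in replicate 2, whereas Pvalb was not. Summed, the 6 markers came to 4600 ± 391 TPM, with a range of 4166 to 5111 TPM. Pvalb gave the largest part of this sum, so its narrow range does not show the lower values of the other markers in replicate 2.

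**Figure D1:**
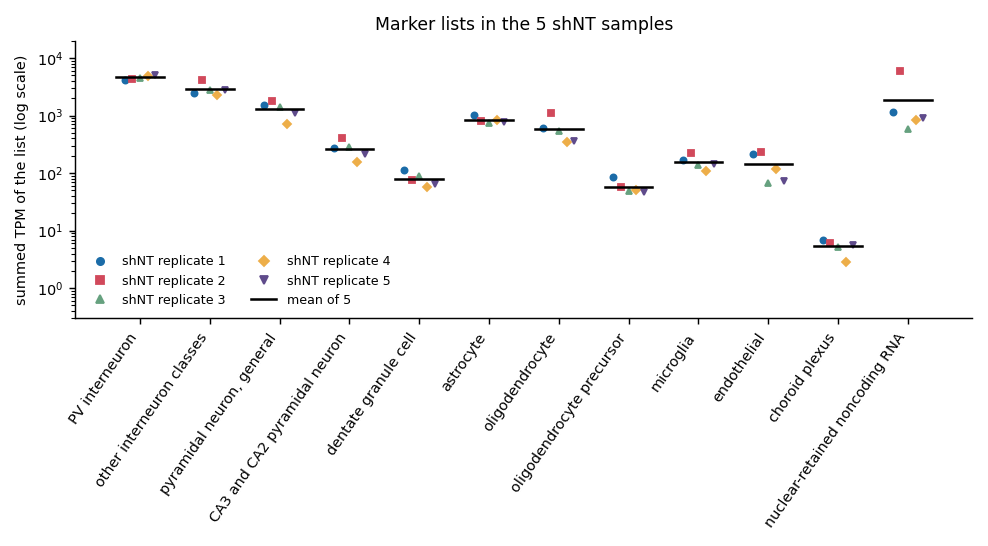
Summed TPM of 12 marker lists (log scale) in each of the 5 shNT samples, with the mean of 5 as a bar. The PV interneuron list, of which Pvalb is the largest part, sits between 4166 and 5111 TPM in all samples. Pyramidal markers sit between 728 and 1804 TPM, and the nuclear-retained RNAs reach 5871 TPM in replicate 2 alone.

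Markers of other interneuron classes divided into high and low genes. Somatostatin (Sst), a peptide of dendrite-targeting interneurons, was at 1097, 1715, 1000, 986 and 1163 TPM. Neuropeptide Y (Npy) was at 947, 1983, 1373, 969 and 1161 TPM. Both were highest in replicate 2, and Pvalb exceeded Sst by 1.84 to 2.83 times in every sample. Cholecystokinin (Cck) was at 350 ± 68.7 TPM, whereas Cnr1, the cannabinoid receptor typical of Cck basket cells, was at 13.6 ± 5.24 TPM. Vip, the peptide of interneuron-selective cells, was at 3.87 ± 1.63 TPM, Htr3a at 4.89 ± 1.88 TPM, Ndnf at 2.12 ± 1.05 TPM and Reln at 0.982 ± 0.356 TPM. Calretinin (Calb2) and calbindin (Calb1) were close to each other, at 27.3 ± 8.77 and 29.4 ± 6.25 TPM, and Pvalb was 58.0 to 157.1 times the level of Calb2. In these pulldowns, more cells of a type and more RNA per cell cannot be told apart.

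Transcripts of principal cells and glia were measured in every sample. The 7 general pyramidal markers summed to 1309 ± 412 TPM, of which Nrgn, a calmodulin-binding protein of dendrites, gave 731 ± 257 TPM and Slc17a7, the vesicular glutamate transporter, 252 ± 97.2 TPM. This list was at 1515, 1804 and 1399 TPM in the YTa31 samples and at 728 and 1098 TPM in the YTa32 samples, so the name sets did not overlap. Tbr1, a factor of cortical projection neurons in the same list, was at 2.51 ± 0.987 TPM. CA3 and CA2 pyramidal markers such as Rgs14 (31.3 ± 9.66 TPM) and Bok (69.1 ± 28.7 TPM) summed to 264 ± 90.4 TPM. Dentate granule cell markers summed to 79.9 ± 21.9 TPM, of which Stxbp6 gave 41.7 ± 9.42 TPM and Prox1 14.3 ± 5.47 TPM.

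Among glia, the 10 astrocyte markers summed to 842 ± 105 TPM, and Aldoc, a glycolytic enzyme, held 508 ± 26.2 TPM of that sum. The other astrocyte genes were each below Aldoc, with Gfap at 113 ± 45.2 TPM, Gja1 at 57.5 ± 16.0 TPM and Aqp4 at 17.9 ± 5.89 TPM. Gfap was near the PV IN marker Lhx6 (138 ± 32.3 TPM), above it in replicates 1 and 2 and below it in replicates 3, 4 and 5. The 8 oligodendrocyte markers summed to 595 ± 312 TPM and reached 1118 TPM in replicate 2, with Mbp at 512 TPM there and at 123 to 251 TPM elsewhere. Microglia (157 ± 44.5 TPM), endothelial (141 ± 79.3 TPM) and oligodendrocyte precursor markers (57.6 ± 16.3 TPM) were lower, and choroid plexus markers were near 0 at 5.36 ± 1.52 TPM. Most of the precursor sum was C1ql1 (51.2 ± 15.1 TPM). The other precursor markers were low, with Pdgfra at 2.52 ± 0.779 TPM, Gpr17 at 2.20 ± 0.928 TPM and Cspg4 at 1.66 ± 0.650 TPM. How much these cells contributed to the levels given below was not tested.

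The most abundant genes were of several kinds. The brain creatine kinase Ckb, which buffers ATP, was highest per length, at 11905 ± 1221 TPM. It was followed by the adaptor protein Bcar1 (7012 ± 2320 TPM), complexin Cplx1 (6444 ± 499 TPM), which clamps and triggers vesicle fusion, and Ndufa4 (6358 ± 1389 TPM), a protein of the respiratory chain. Next were Atp1b1 (6070 ± 824 TPM), the beta subunit of the sodium pump, and the calmodulin gene Calm2 (5474 ± 778 TPM). Of the 20 genes highest in TPM, 5 encode nuclear subunits of oxidative phosphorylation, among them Cox4i1 (5362 ± 1146 TPM) and Cox6b1 (5066 ± 1128 TPM). Among the 100 highest genes, 23 encode such subunits and 5 enzymes of glycolysis, whereas none encodes a cytosolic ribosomal protein. Reads with multiple alignments were not counted, and whether that lowered ribosomal protein genes was not tested. Nuclear genes alone are behind the counts of 23 and 5. The 37 mitochondrially encoded genes listed had 0 counts in all 5 samples. Only if reads could be assigned to these genes does that set a limit on their level, of 0.152 CPM in the shallowest library. Whether reads could be assigned to them is not given in the sources used here.

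Ranked by CPM, without regard to length, the order changed and 12 genes were in both lists of 20. Ndrg4 (8097 ± 1216 CPM), Bcar1 (7977 ± 2149 CPM) and the SNARE protein Snap25 (6585 ± 814 CPM) were highest. Ckb (6178 ± 744 CPM), Atp1b1 (5166 ± 828 CPM), Lars2 (5033 ± 1767 CPM), a mitochondrial leucyl-tRNA synthetase, and Cplx1 (4966 ± 628 CPM) came next. Further down were Malat1 (3974 ± 5326 CPM), Atp5b (3858 ± 557 CPM), Mdh1 (3805 ± 589 CPM), Trp53bp1 (3608 ± 2113 CPM), Aldoa (3561 ± 399 CPM) and Pkm (2953 ± 425 CPM). Gad1 (2950 ± 614 CPM), Calm2 (2844 ± 597 CPM), Map1b (2713 ± 432 CPM), Snrpn (2684 ± 482 CPM) and Ldhb (2612 ± 410 CPM) were lower in the list. Together the 20 highest genes held 8.81% ± 0.31 of gene counts, so that no small set of genes dominated the libraries. Exons of other genes overlap 15.04% of Trp53bp1, whose level is therefore uncertain.

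Bcar1 was among the abundant genes that varied between samples. It was at 9692, 6787, 8921, 5584 and 4078 TPM, higher in each YTa31 sample than in either YTa32 sample.

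Families of channels, receptors, transmitter genes, peptides and transcription factors were then ordered. In 47 families with 1363 genes, 718 genes (52.7%) had at least 1 TPM in all 5 samples, a share close to the 53.6% of all 22120 protein-coding genes (11846 genes). Classes differed around that share. Glutamate receptor genes were detected most often (36 of 40, 90.0%), ahead of calcium channels (16 of 24), potassium channels (63 of 95) and growth factor receptors (39 of 59). Peptides (83 of 190) and receptors for modulators (52 of 124) were below it, and homeobox factors were far below it (36 of 166).

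Order within a family was read from the 5 highest members. Of 186 neighbouring pairs, 110 had the same order in 5 of 5 samples and 76 did not. An exact two-sided sign-flip permutation test over 5 samples cannot go below p = 0.063, so the number of samples with the same order is given in place of a p-value. The exon length chosen matters too: 78 of the 110 pairs kept their order under all 4 length measures, and the same gene led its family under all 4 in 23 of 47 families and in all 5 samples in 29. An order described below as firm was seen in 5 of 5 samples and with all 4 length measures.

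Among voltage-gated potassium channel pores, Kv3 genes had the highest means. Kcnc1 was at 316, 211, 337, 294 and 288 TPM and Kcnc2 at 365, 178, 344, 296 and 255 TPM, with Kcnc1 the higher in 2 of 5 samples. The 2 genes were therefore not separated. Kcnc4, also of the Kv3 group, was far lower, at 6.17 ± 2.44 TPM. Of 40 voltage-gated pore genes, 29 were detected. Kcng4, a modulatory subunit that forms channels only with other pore subunits, was at 176 ± 59.6 TPM, and the Kv1 genes Kcna1 and Kcna2, which set spike threshold at the axon, were at 156 ± 32.3 and 117 ± 54.9 TPM. Kcns3, another modulatory subunit, was at 72.8 ± 12.7 TPM.

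Auxiliary and leak subunits of potassium channels were abundant as well. Among 18 auxiliary genes, the Kv1 beta subunits Kcnab3 (418 ± 62.1 TPM) and Kcnab2 (338 ± 83.6 TPM) and the Kv4 partner Kcnip2 (189 ± 19.2 TPM) were highest. Kcnab3 was above Kcnab2 in 5 of 5 samples, but Kcnab2 led under each of the other 3 length measures. The two-pore channel Kcnk1 was at 299 ± 29.1 TPM, lowest in replicate 2, and gave 79.1% of its family. Its lead over Kcnk12 (30.6 ± 4.03 TPM) was firm, as was that of the G-protein-gated Kcnj9 (93.0 ± 20.2 TPM) over Kcnj3 (33.5 ± 2.40 TPM) among inward rectifiers. The large-conductance calcium-activated channel Kcnma1 was at 55.9 ± 16.7 TPM, firmly above the small-conductance Kcnn2 (16.7 ± 5.46 TPM). Kcnn1 (16.0 ± 2.92 TPM) was not separated from Kcnn2.

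Sodium channel pores were led by Scn1a. Scn1a (Nav1.1), the channel on which interneuron firing is known to depend, was at 98.7, 59.6, 100.3, 82.3 and 69.2 TPM. Scn8a (Nav1.6) was at 77.1, 46.9, 71.3, 48.4 and 45.3 TPM, firmly below Scn1a, by 1.27 to 1.70 times. Scn2a (15.8 ± 6.06 TPM) and the leak channel Nalcn (15.7 ± 4.33 TPM) were not separated, and Scn3a was at 1.88 ± 1.03 TPM. With the median transcript length Scn2a took the lead. Beta subunits, which modulate the pore and bind to adhesion molecules, included Scn2b (146 ± 14.1 TPM), Scn4b (40.3 ± 6.87 TPM) and Scn3b (18.8 ± 8.11 TPM), in firm order. Pacemaker genes, which carry the hyperpolarization-activated current, included Hcn2, at 196, 111, 202, 134 and 109 TPM. Hcn4 was at 0.512 ± 0.284 TPM.

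Calcium channel pores were low beside these genes, with 37.1 ± 13.3 TPM summed over 10 members. Cacna1a, the P/Q-type pore that triggers release from PV terminals, led at 15.9 ± 4.80 TPM and was firmly above the N-type Cacna1b (5.42 ± 2.67 TPM), which was firmly above the L-type Cacna1d (3.74 ± 1.30 TPM). Their beta and alpha2delta partners summed to 271 ± 68.2 TPM, with Cacnb4 (86.8 ± 15.8 TPM), Cacnb3 (59.4 ± 17.3 TPM) and Cacna2d3 (43.8 ± 13.9 TPM) in firm order. Inside the cell, the IP3 receptor Itpr1 was at 19.4 ± 8.14 TPM, above the ryanodine receptor Ryr2 (5.61 ± 3.04 TPM) and Itpr2 (2.18 ± 0.942 TPM) in 5 of 5 samples. With the median transcript length Ryr2 led.

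Other channel families had leaders of several kinds. Among 22 TRP channels, the receptor-operated Trpc6 was at 33.4 ± 9.89 TPM and Trpc4 at 20.1 ± 5.58 TPM. Clcn4, an intracellular chloride-proton exchanger, was at 161 ± 26.1 TPM and firmly above Ano8 (47.8 ± 8.82 TPM), from which Clcn3 (46.8 ± 6.64 TPM) was not separated. Among connexins and pannexins the astrocyte connexin Gja1 was highest (57.5 ± 16.0 TPM), and it is also one of the astrocyte markers above. Panx2 (39.6 ± 7.67 TPM), the neuronal connexin Gjd2 of electrical synapses (36.1 ± 5.91 TPM) and Panx1 (34.8 ± 2.58 TPM) followed without a stable order. The acid-sensing Asic1 was at 42.6 ± 11.4 TPM, firmly above Asic2 (23.9 ± 9.64 TPM), which was not separated from the ATP-gated P2rx4 (21.5 ± 3.28 TPM).

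**Figure D2:**
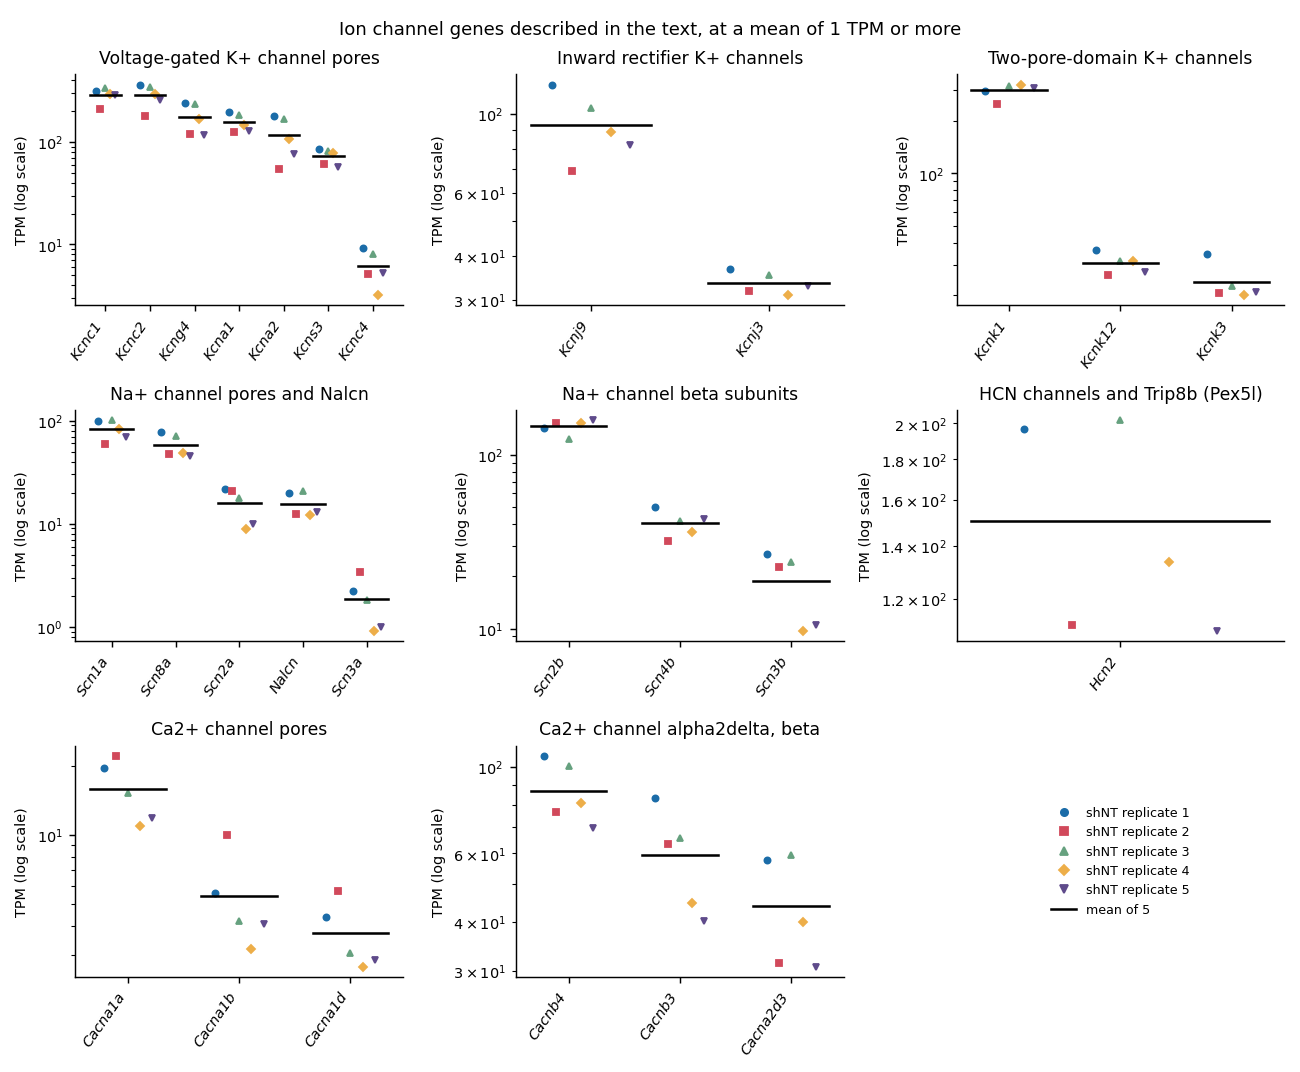
TPM (log scale) of up to 8 of the members described in the text with a mean of at least 1 TPM in 8 ion channel families, with 1 point per shNT sample and the mean of 5 as a bar. Kcnc1 and Kcnc2 overlap at the top of the voltage-gated potassium channels, and Kcnk1 stands at 299 TPM above Kcnk12.

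AMPA receptors, which carry fast excitation, were dominated by Gria1. Gria1 was at 672, 349, 705, 524 and 422 TPM, and Gria2, the subunit that makes the receptor impermeable to calcium, was at 166, 198, 153, 107 and 107 TPM. The ratio of Gria1 to Gria2 was 3.95 to 4.89 in 4 samples and 1.76 in replicate 2, so the direction was shared and the size was not. Gria4, a subunit of fast kinetics typical of PV INs, was at 127 ± 33.1 TPM and above or below Gria2 depending on the sample, and Gria3 was lowest at 64.1 ± 18.8 TPM. Among 12 auxiliary proteins, all of them detected, the cornichon Cnih2 was at 995 ± 140 TPM, firmly above the TARP Cacng3 (261 ± 41.5 TPM). Stargazin (Cacng2) was at 109 ± 6.56 TPM.

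NMDA receptor genes summed to 144 ± 39.8 TPM against 872 ± 209 TPM for AMPA subunits. The obligatory subunit Grin1 was at 63.4 ± 25.2 TPM and Grin2b at 41.4 ± 7.87 TPM, with Grin1 the higher in 4 of 5 samples. Grin2d, a subunit typical of interneurons, was at 30.2, 12.2, 36.7, 21.2 and 15.9 TPM. Grin2a was at 14.04, 11.6, 11.1, 4.11 and 3.49 TPM, firmly below Grin2d, and its 3 YTa31 samples were all above its 2 YTa32 samples. Among kainate receptors, the auxiliary subunits Neto1 (82.8 ± 12.2 TPM) and Neto2 (41.1 ± 13.1 TPM) had higher means than the pores, of which Grik5 (38.1 ± 11.8 TPM) was highest and below Neto2 in 4 of 5 samples. The group I metabotropic receptor Grm5 was at 60.4 ± 19.6 TPM, 63.8% of its family, while Grm3 was at 8.38 ± 3.20 TPM.

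Inhibitory receptors included the synaptic GABA-A subunit Gabrb2, at 171 ± 36.0 TPM. Of 19 GABA-A genes, 12 were detected. Gabra4 (96.9 ± 16.2 TPM) was firmly above Gabrd (82.7 ± 15.3 TPM), the subunit of extrasynaptic receptors that sense ambient GABA. Glrb, the glycine receptor beta subunit, which also binds the scaffold gephyrin, was at 300 ± 53.0 TPM, although the ligand-binding Glra2 was at 3.17 ± 0.953 TPM and Glra1 at 0.541 ± 0.349 TPM. The GABA-B subunits Gabbr1 (238 ± 26.5 TPM) and Gabbr2 (128 ± 64.1 TPM), which act as a pair, were in firm order, and Gabbr1 led the family with transcript lengths.

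Of 124 genes for modulator receptors, 52 were detected. Of 21 acetylcholine receptor genes, 6 were detected, and the nicotinic Chrnb2 (40.2 ± 14.2 TPM), the muscarinic Chrm1 (36.6 ± 11.3 TPM) and Chrm2 (31.0 ± 12.6 TPM), the inhibitory M2 receptor, were highest. Chrm1 exceeded Chrm2 in 5 of 5 samples, but Chrm2 led with the median transcript length. The histamine H3 receptor Hrh3 (99.4 ± 10.7 TPM) was firmly above the serotonin receptor Htr7 (32.3 ± 4.02 TPM), itself firmly above the adrenergic Adrb1 (20.2 ± 2.42 TPM).

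Opioid receptors differed widely. The delta receptor Oprd1 was at 70.7, 20.3, 62.2, 33.7 and 31.2 TPM, whereas the mu receptor Oprm1 was at 1.01, 0.452, 0.955, 0.61 and 0.52 TPM. Their ratio was 44.9 to 69.9 in the 5 samples, so the order did not depend on the sample. Oprd1 and the adenosine receptor Adora1 (38.0 ± 13.6 TPM) were not separated, and the nociceptin receptor Oprl1 was at 26.0 ± 5.97 TPM. Of 53 peptide receptors 19 were detected, led by the neurotensin receptor Ntsr2 (69.4 ± 19.0 TPM), the PACAP receptor Adcyap1r1 (44.1 ± 18.8 TPM) and the cholecystokinin receptor Cckbr (24.5 ± 6.01 TPM). Adcyap1r1 was firmly above Cckbr but was not separated from Ntsr2, and it led with the median transcript and coding lengths. The oxytocin receptor Oxtr was at 12.5 ± 3.14 TPM.

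Growth factor receptors were led by the GDNF co-receptor Gfra1 (134 ± 50.3 TPM), followed by Gfra4 (77.9 ± 12.7 TPM) and the BDNF receptor Ntrk2 (63.7 ± 26.3 TPM). Ret, the signalling partner of the GDNF co-receptors, was at 1.52 ± 0.538 TPM. Erbb4, the neuregulin receptor that controls excitatory synapses on PV INs, was at 71.3, 39.0, 68.6, 46.3 and 46.8 TPM, and the neurotrophin-3 receptor Ntrk3 was at 50.8 ± 12.9 TPM. These neighbours changed places between samples. In the remaining families, the collagen receptor Ddr1 (21.1 ± 4.35 TPM), the cytokine receptor Flt3 (15.9 ± 1.86 TPM) and Fgfr1 (15.7 ± 3.94 TPM) were highest, and Epha5 (46.6 ± 8.63 TPM), Ephb6 (44.9 ± 14.9 TPM) and Epha7 (29.3 ± 9.16 TPM) were the highest Eph receptors.

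**Figure D3:**
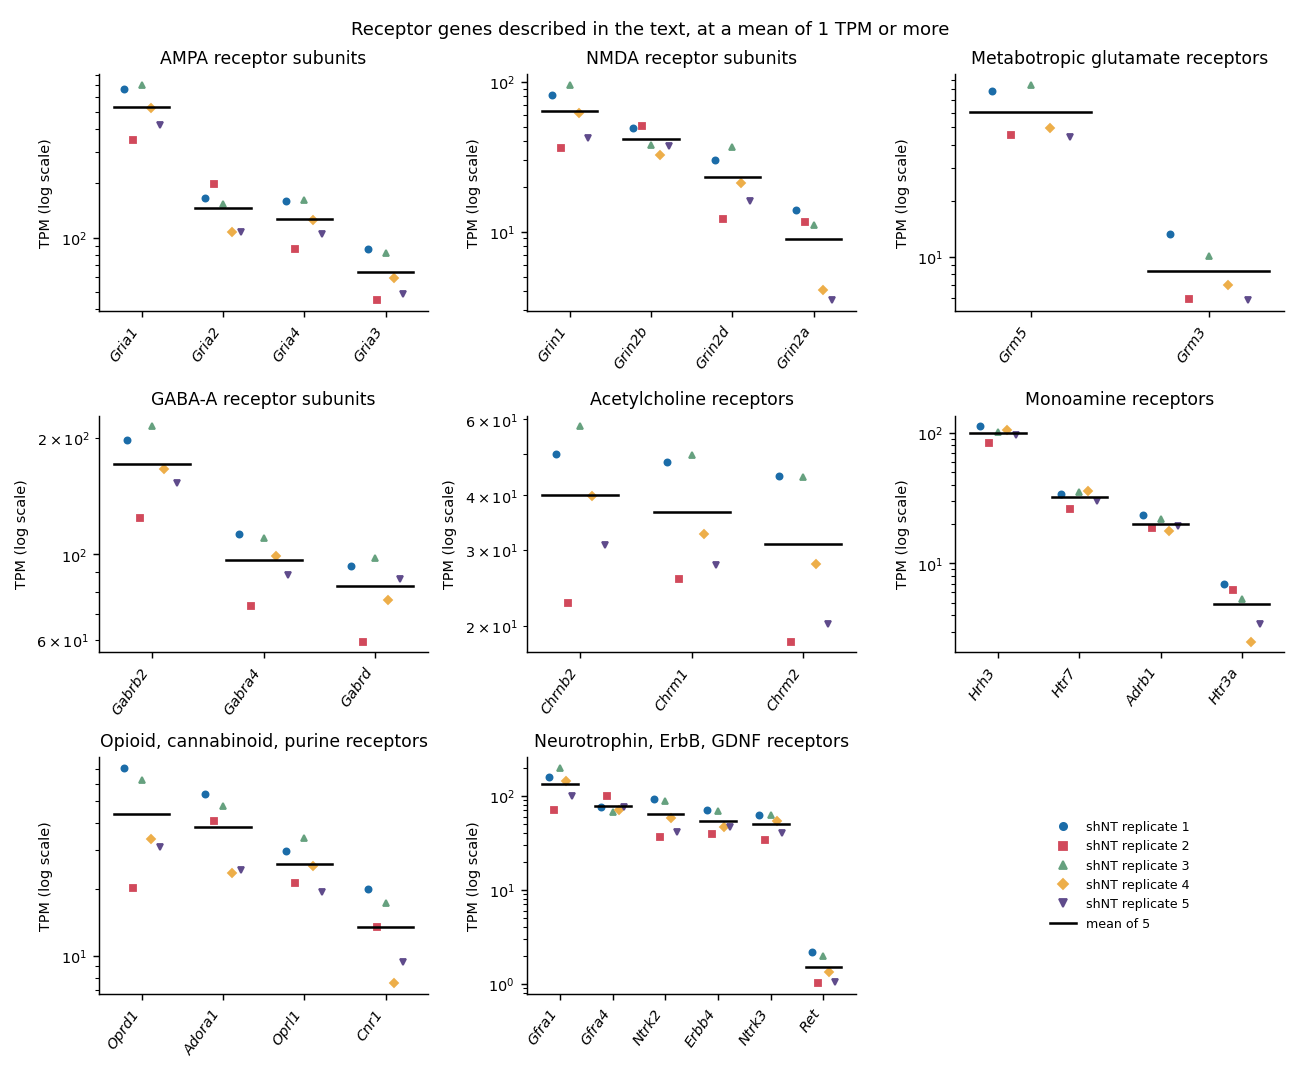
TPM (log scale) of up to 8 of the members described in the text with a mean of at least 1 TPM in 8 receptor families, with 1 point per shNT sample and the mean of 5 as a bar. Gria1 stands above the other AMPA subunits in all 5 samples and is lowest in replicate 2, at 349 TPM.

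Of 9 genes of GABA synthesis, loading, uptake and breakdown, 7 were detected. Gad1 exceeded Gad2 (161 ± 38.2 TPM), the enzyme form at the terminal, by 5.94 to 7.98 times. The breakdown enzymes Abat (153 ± 59.9 TPM) and Aldh5a1 (61.9 ± 13.8 TPM) were present as well, and Slc6a11, the GABA transporter of astrocytes, was at 8.87 ± 3.01 TPM. The neuronal chloride exporter Slc12a5 was at 157, 60.8, 170, 111 and 90.5 TPM, 5.99 to 16.7 times the chloride importer Slc12a2 (9.12 ± 2.22 TPM).

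In the glutamate and glutamine family Slc17a7 was highest, and it is also a pyramidal marker with higher values in the YTa31 samples (340, 290 and 333 TPM) than in the YTa32 samples (127 and 171 TPM). Gad1 was 2.31 to 9.75 times Slc17a7. The glutamine transporter Slc38a1 (130 ± 28.4 TPM), which supplies the precursor of GABA, and Glud1 (129 ± 20.9 TPM) were not separated. Of 17 genes for other transmitters 4 were detected, with Nos1 (13.9 ± 2.21 TPM), the neuronal nitric oxide synthase, firmly above Slc18a2 (6.46 ± 0.816 TPM), followed by Slc6a9 (5.29 ± 2.10 TPM).

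Calcium-binding proteins of the EF-hand type summed to 6326 ± 582 TPM, and Pvalb gave 41.7% of that sum. The neuronal calcium sensors Vsnl1 (991 ± 80.3 TPM) and Hpca (706 ± 150 TPM) were next, with Vsnl1 above Hpca in 5 of 5 samples but only under 1 of 4 length measures. With the median transcript length Ncs1 (442 ± 39.6 TPM) took the lead from Pvalb.

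Of 64 neuropeptide precursor genes 20 were detected, and Npy, Sst and Cck held 77.4% of the summed level. Npy and Sst changed places between samples, and Sst was firmly above Cck. Tac1, the precursor of substance P and a gene of PV basket cells, was at 317, 340, 339, 265 and 396 TPM and was not separated from Cck. Cortistatin (Cort, 186 ± 59.7 TPM), a relative of somatostatin, and Pthlh (125 ± 17.6 TPM), the parathyroid hormone-like peptide, followed, while Pnoc (16.6 ± 4.54 TPM) and Penk (10.3 ± 4.95 TPM) were low. Peptide-processing genes were abundant, with carboxypeptidase E (Cpe) at 2738 ± 218 TPM, the proSAAS gene Pcsk1n at 1741 ± 273 TPM and chromogranin A (Chga) at 941 ± 148 TPM.

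Secreted factors were led by different genes in each family. Among 18 neurotrophin, neuregulin and GDNF-family ligands, Bdnf was at 5.53, 10.1, 5.99, 3.70 and 4.32 TPM, highest in replicate 2. Neurturin (Nrtn, 47.5 ± 12.3 TPM), a ligand of GDNF receptors, was higher, as was neurotrophin-3 (Ntf3) at 43.1 ± 4.86 TPM. Fgf12 (251 ± 27.3 TPM) and Fgf13 (154 ± 25.2 TPM), intracellular partners of sodium channels despite their family name, and Vegfb (144 ± 9.98 TPM) led the other growth factors. Among synaptic organizers, neurexophilin Nxph1 (311 ± 55.04 TPM), a ligand of neurexins, was firmly above cerebellin Cbln4 (209 ± 38.2 TPM), which was firmly above C1ql1 (51.2 ± 15.1 TPM).

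Of 166 homeobox factors, 36 were detected. Lhx6, Dlx5 (124 ± 15.2 TPM), Dlx1 (99.997 ± 10.001 TPM) and Dlx2 (58.8 ± 8.23 TPM), all genes of interneuron development, were near the top, as was Meis3 (79.0 ± 9.84 TPM). With the median transcript and coding lengths Dlx1 led. Satb1, a chromatin organizer downstream of Lhx6, was at 56.0 ± 12.6 TPM. Nkx2-1, which specifies the progenitors of these cells, was at 0.126 ± 0.0488 TPM. Sox6, also of this lineage, was at 8.22 ± 1.11 TPM.

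Other factor families had broader membership and closer neighbours. Mef2c, an activity-regulated factor needed for PV INs, was at 287, 164, 304, 235 and 219 TPM and firmly above Mef2a (70.2 ± 22.1 TPM), which was firmly above Mef2d (51.7 ± 15.6 TPM). With the median transcript length Etv5 led instead. Ppargc1a, the coactivator of mitochondrial genes, was at 116, 61.8, 129, 91.4 and 65.5 TPM. The estrogen-related receptor Esrra (185 ± 10.9 TPM), its partner, and the thyroid hormone receptor Thra (151 ± 21.8 TPM) were the highest nuclear receptors, ahead of Nr1d2 (67.9 ± 18.6 TPM), and Thra led under the other length measures. Jund (239 ± 33.1 TPM), Atf4 (232 ± 30.0 TPM) and Nfe2l1 (156 ± 36.6 TPM) led the bZIP factors, and Maf, a factor of interneurons from the medial ganglionic eminence, was at 26.3 ± 2.39 TPM.

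Among the remaining families, Id2 (149 ± 11.6 TPM), an inhibitor of bHLH factors, and the bHLH factor Tcf4 (138 ± 21.4 TPM) were not separated. Tcf4 led under each of the other length measures, and Mlx was at 84.2 ± 3.13 TPM. Sox2 (57.2 ± 3.02 TPM), Foxn3 (52.2 ± 8.81 TPM) and Foxk2 (35.5 ± 12.7 TPM) led the SOX, forkhead and T-box genes, and Klf13 (70.4 ± 12.3 TPM), Klf9 (66.9 ± 15.4 TPM) and Sp9 (65.4 ± 9.49 TPM) the KLF and SP genes. Zbtb7a (72.6 ± 5.09 TPM) and Zbtb18 (51.5 ± 17.6 TPM) followed Ppargc1a. Etv1, an ETS factor of PV INs, was at 8.51 ± 1.19 TPM, and Tpm2, a tropomyosin, at 59.9 ± 11.9 TPM.

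Some regulators of transcription and protein turnover were low. Meis2, a homeobox factor, was at 2.72, 2.08, 2.19, 0.917 and 0.98 TPM, and Tbr1, a T-box factor of projection neurons, at 3.57, 2.84, 3.11, 1.10 and 1.94 TPM. Bcl11a, a zinc-finger factor, was at 8.27, 8.82, 6.39, 4.57 and 4.61 TPM, and the ubiquitin ligase Herc1 at 9.13, 8.34, 6.82, 5.14 and 5.05 TPM. For all 4 genes the 3 YTa31 samples were above both YTa32 samples, as they were for 25.9% of all protein-coding genes detected, so the split is not particular to these genes. The same split was seen in the summed pyramidal markers, and whether these cells had a part in it was not tested.

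**Figure D4:**
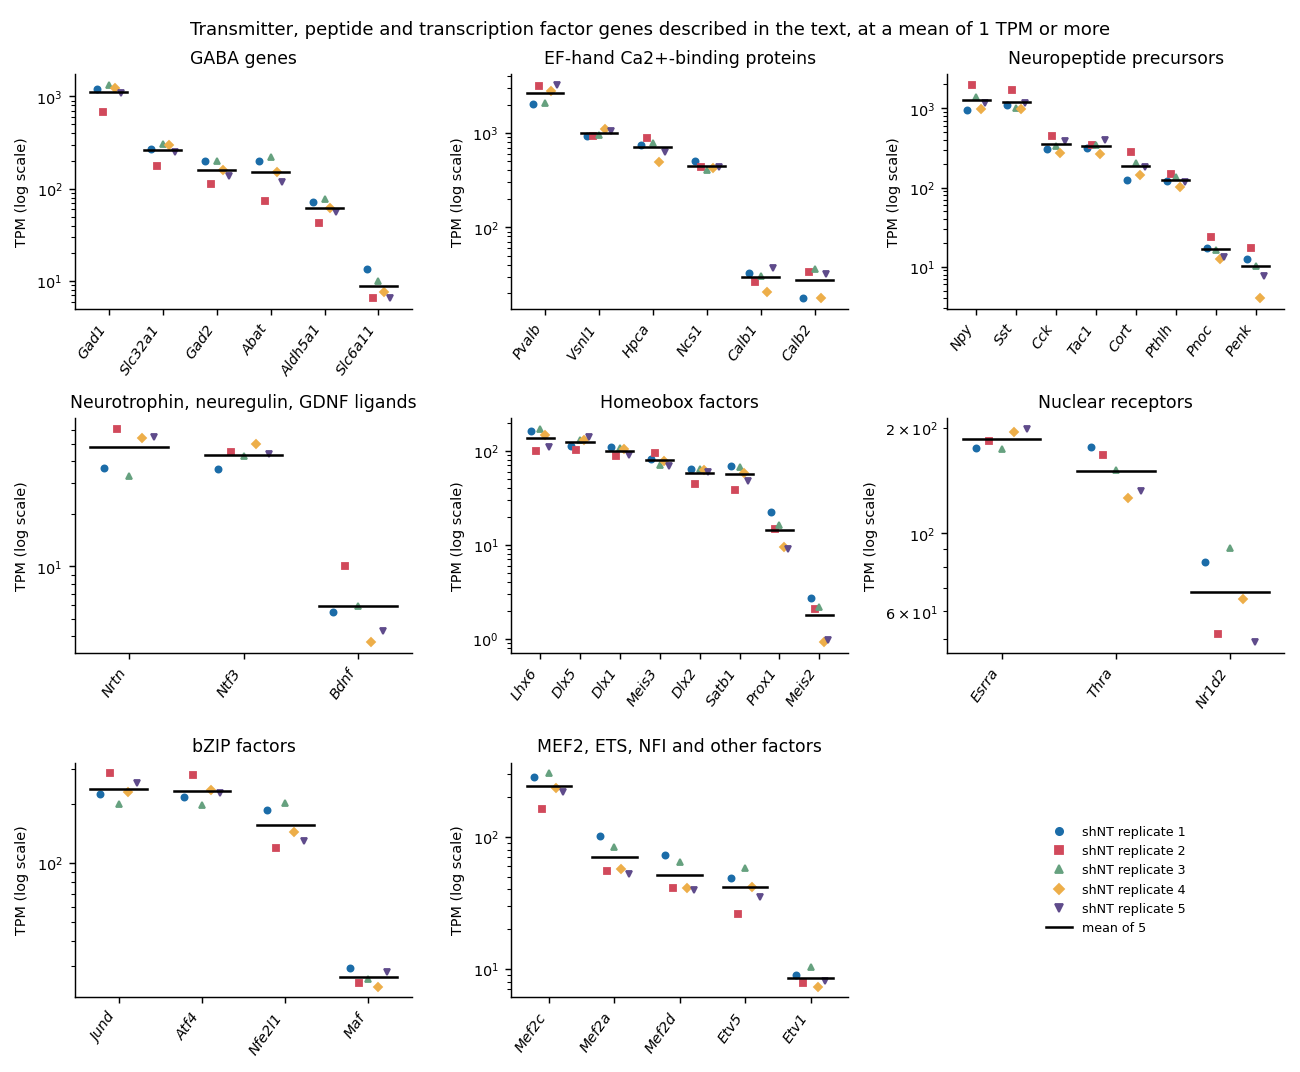
TPM (log scale) of up to 8 of the members described in the text with a mean of at least 1 TPM in 8 families of transmitter, calcium-binding, peptide, ligand and transcription factor genes, with 1 point per shNT sample and the mean of 5 as a bar. Npy and Sst overlap near 1000 TPM, and Pvalb stands above the other calcium-binding proteins in all 5 samples.

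Spread between the samples was moderate. The common biological coefficient of variation from edgeR was 0.258 over 14292 genes, and the median SD of log2 CPM was 0.23 over 8175 genes with a mean of at least 10 TPM. Among these, Mkrn2, Actr2, Ric8a, Slc30a9, Csnk1a1, Usp21, Haus2, Gsr, Pccb and Mtrf1 varied least, with an SD of 0.01 to 0.03. The largest values were those of Y-linked Eif2s3y (3.61) and Ddx3y (3.55), followed by Ppp1r9a (1.84), Actn2 (1.66), Lmo7 (1.60), Mprip (1.59), Kmt2a (1.48), Actn4 (1.48) and Atrx (1.47).

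The detected family members also differed between the name sets. Of the 718, 272 (37.9%) had all 3 YTa31 samples above both YTa32 samples and 16 (2.23%) had them below, against 25.9% and 5.49% of the 11846 protein-coding genes detected. Replicate 1 was the highest sample for 309 members (43.0%, against 35.02% of all 11846 genes) and replicate 5 the lowest for 254 (35.4%, against 32.9%). Replicate 2 was the lowest for 182 members (25.3%, against 27.4% of all genes) and the highest for 192 (26.7%, against 28.3%), shares close to those over all genes. The members lowest in replicate 2 had a median exon length of 4719 bases and those highest in it of 3060 bases, beside 4177 bases over all 718. Such gaps were not particular to replicate 2. These medians were 1758 (22 members) and 4756 bases in replicate 1 and 2413 and 4662 bases in replicate 3. In replicate 4 they were 3801 and 2635 bases, and in replicate 5 they were 4771 and 2672 bases. Replicate 4 was the lowest for 189 members (26.3%, against 14.8% of all genes). Whether the name sets mark batches is not given in the sources used here.

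Some genes stood out in replicate 1. Ppp1r9a (neurabin), a scaffold of spines, was at 546, 111, 65.7, 15.2 and 42.6 TPM. The alpha-actinin Actn2 was at 185, 23.6, 37.8, 7.49 and 14.3 TPM. Both were highest in replicate 1 and lower in the YTa32 samples than in any YTa31 sample. In all, 26 of 8175 genes (0.318%) were at least 2-fold above every other sample in replicate 1, including drebrin (Dbn1), Mprip, Limch1, Actn4 and Actn1, and 21 genes (0.257%) in replicate 2, while none was in replicates 3, 4 or 5. The genes of replicate 2 included Opalin of oligodendrocytes, Tyrobp of microglia, and the noncoding Snhg11, alongside the higher oligodendrocyte and microglia sums of that library.

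**Figure D5:**
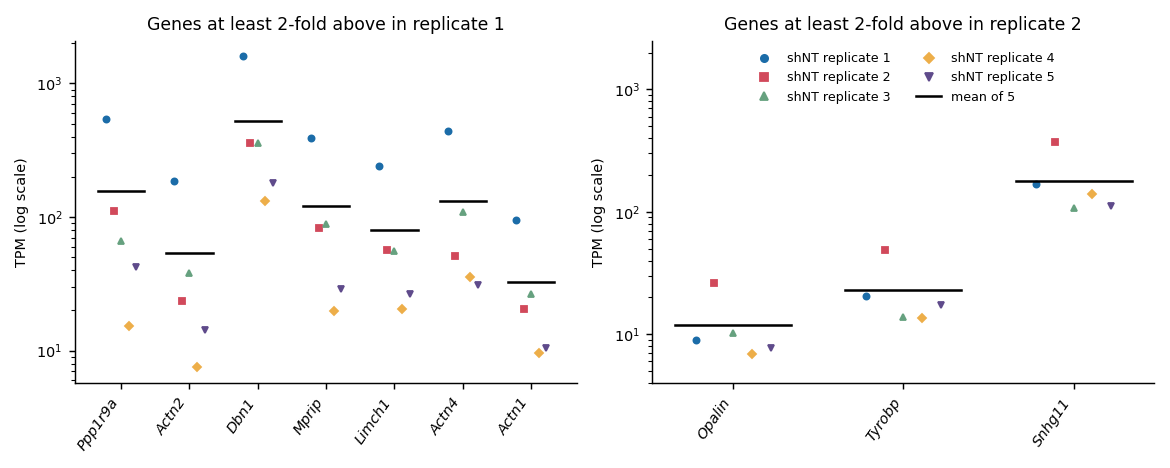
TPM (log scale) of genes named in the text that were at least 2-fold above all other samples in replicate 1 (left) or in replicate 2 (right), with 1 point per shNT sample and the mean of 5 as a bar. In replicate 1 the largest fold over the next sample is that of Ppp1r9a (4.92), at 546 TPM against 111 TPM.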

How the data were processed

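Ribosome-associated RNA of the 5 shNT samples was analysed. The authors built libraries with the SMARTer v4 kit, sequenced reads of 50 bases, aligned them with STAR to the mm9 transcriptome and counted them without strand with HTSeq 0.6.0. The deposited values are raw counts per Ensembl gene. Their annotation is not given in the sources used here. GENCODE exon models of mm9 named 37205 of 37620 identifiers (0.00925 to 0.018% of gene counts were left without a name), and older symbols were updated from RefSeq. Lines for reads outside exons (9.76 to 18.6% of unique reads), ambiguous reads (1.66 to 1.78%) and multiple alignments were kept out of totals. No per-sample column was left unused.

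CPM and TPM were computed in Python 3.11.15 (pandas 2.3.3, numpy 2.4.6) and dispersion in R 4.3.3 with edgeR 4.0.16, after TMM, on the genes that reached 1 CPM in any shNT sample. DESeq2 1.42.0 gave alternative size factors. Log2 ratios of family members used a pseudocount of 0.01 TPM, and log2 CPM a prior count of 2. Where a symbol had several entries, the one with the longest exon model was used (20 family entries left out). Counting error is small at this depth and PCR copies are not independent molecules, so limits from counts cover counting error only. The steps were tested on simulated data.

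Genes were named by rule: preset markers, the 20 highest by CPM, the 3 highest members of each family, textbook PV IN genes with Meis2, Bcl11a, Tbr1 and Herc1, and the 10 most and 10 least variable genes with a mean of at least 10 TPM. Other genes were named after their values were seen. Some genes that the rule names are not reported here, so a gene given first need not be the highest of its family. The samples, families and lists were chosen with earlier results of these data known. The 4 shRNA samples were not used here. Alternatives were other exon lengths, normalizations, detection limits, each replicate left out and either name set alone. The restriction to samples with transcripts of both sexes was chosen after seeing the data.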

Additional observations from a re-analysis of the deposited data

Results flagged for a closer look

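In 270 sets of 5 values, 22 had 1 sample far from the other 4. Its gap over the range was above Dixon's critical value of 0.71. For independent sets not picked by their spread, chance would give about 1 in 20, or 13.5 sets. Here Actn2, Actn4, Mprip and Ppp1r9a were among the genes named for their large spread in these samples. Malat1, Meg3, Miat and Snhg11 entered both alone and within a list sum. The 22 sets can therefore not be weighed against 13.5. Replicate 2 was the sample far above the others in 11 sets and replicate 1 in 8.

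In replicate 2, reads outside exons made up 18.6% (others 9.76 to 11.3%). The nuclear-retained noncoding RNAs summed to 5871 TPM there (others 585 to 1167 TPM), with Malat1 at 5184 TPM (others 414 to 899 TPM), Snhg11 at 370 TPM, Meg3 at 255 TPM and Miat at 32.8 TPM. The markers of other interneuron classes summed to 4237 TPM (others 2285 to 2815 TPM), and Sst alone was at 1715 TPM (others 986 to 1163 TPM). Npy (1983 TPM), Cck (445 TPM) and Vip (5.27 TPM) were also highest in replicate 2. The rest of that list, Calb2, Lamp5, Reln, Ndnf, Htr3a and Cnr1, were not highest there. Of glial genes, complement C1qb of microglia was at 78.4 TPM (others 31.6 to 44.0 TPM) and Ermn of oligodendrocytes at 17.9 TPM (others 8.13 to 10.6 TPM). The receptor gene Gfra4 was at 99.7 TPM (others 68.2 to 75.9 TPM). On the low side, the glycolytic Pkm was at 2528 TPM (others 3596 to 3985 TPM).

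In replicate 1, some genes were far above the other samples: Ppp1r9a at 546 TPM (others 15.2 to 111 TPM), Actn4 at 438 TPM (others 31.0 to 109 TPM), Mprip at 388 TPM (others 19.9 to 89.3 TPM) and Actn2 at 185 TPM (others 7.49 to 37.8 TPM). Smaller gaps were seen for Kcnip2 at 223 TPM (others 176 to 184 TPM), Kcnk3 at 34.3 TPM (others 20.1 to 22.7 TPM) and C1ql1 at 77.7 TPM (others 40.9 to 49.3 TPM), the last of which is in the oligodendrocyte precursor list, at 85.9 TPM summed (others 46.5 to 57.1 TPM). The 20 most abundant genes held 8.27% of its counts (others 8.82 to 9.02%). In replicate 4, Vip was at 1.06 TPM (others 4.19 to 5.27 TPM). No explanation for these values was tested.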

How the results depend on the processing

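No paired analysis was possible because the 5 samples form 1 group and no result comes from a test between groups. TMM and DESeq2 scaling moved none of the 274 named gene levels by more than 1 SD, and leaving out mitochondrially encoded genes changed nothing, since they had no counts. The exon length did: the level moved by more than 1 SD for 71 of 274 genes with the longest transcript, 215 with the median transcript and 162 of 268 with the coding length, and the YTa32 samples alone moved 27. More than 1.5-fold from the 5-sample mean lay 58 genes in the YTa32 samples alone, Grin2a, Scn2a and Slc17a7 among them, and 7 in the YTa31 samples alone.

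The count of genes detected ran from 8980 (5 TPM) to 12716 (0.5 TPM), and from 11857 to 12004 with 1 replicate left out. The share of the 20 highest genes ran from 8.75 to 8.94% with 1 replicate left out and from 8.73 to 9.11% over all alternatives. Ordered pairs ran from 109 to 123 with 1 replicate left out and from 105 to 152 over all alternatives. The 152 came from the YTa32 samples alone, and with fewer samples a shared order in all of them is reached more easily.

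The PV list moved to 5140 TPM with the longest transcript, 5391 TPM with the coding length and 5006 TPM in the YTa32 samples. With the median transcript length the sums were 1228 TPM for other interneurons, 796 TPM for pyramidal cells, 126 TPM for CA3 and CA2, 172 TPM for granule cells, 1785 TPM for astrocytes, 22.8 TPM for precursors, 89.7 TPM for microglia, 3.79 TPM for choroid plexus, 8262 TPM for nuclear-retained RNAs and 106 TPM for Y-linked genes with Xist. With the coding length they were 1819 TPM for other interneurons, 1905 TPM for pyramidal cells, 131 TPM for granule cells, 1590 TPM for oligodendrocytes, 38.0 TPM for precursors and 84.6 TPM for microglia (not run for the noncoding RNAs and the Y-linked list). The construction of these lengths is the difference between the values. With 1 replicate left out the sums stayed at 4473 to 4709 TPM for PV, 2585 to 3073 TPM for other interneurons, 1185 to 1454 TPM for pyramidal, 230.4 to 291 TPM for CA3 and CA2, 71.8 to 85.5 TPM for granule cells, 798 to 864 TPM for astrocytes, 464 to 656 TPM for oligodendrocytes, 50.6 to 60.4 TPM for precursors, 139 to 169 TPM for microglia, 117 to 160 TPM for endothelial, 4.99 to 5.98 TPM for choroid plexus, 874 to 2196 TPM for nuclear-retained RNAs (lowest without replicate 2) and 32.3 to 54.1 TPM for Y-linked genes with Xist.

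The coefficient of variation was 0.210 with a minimum of 10 CPM in all samples, 0.228 as the median of tagwise values and 0.126 in the YTa32 samples, and ran from 0.219 (without replicate 2) to 0.277 with 1 replicate left out. Levels near 1 TPM are limited by depth and by RNA carried along.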
